A study of Mus musculus with 12 samples.

Results

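Ribosomal protein genes were compared between macrophages sorted from pancreas tumor and macrophages sorted from normal mouse pancreas. A gene was a member when the array's gene name was Rpl or Rps plus a number (cytosolic ribosome, 81 genes) or Mrpl or Mrps plus a number (mitochondrial ribosome, 77 genes). The rule gave 158 members, measured by 292 probes, and the array's files hold 24505 named genes in all. The names of 10 S6 kinase genes (Rps6k), 6 pseudogenes and 1 binding protein (Rps19bp1) were left out. Each gene was read from its brightest probe, by mean processed signal over all arrays.

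The cytosolic ribosome translates messages exported from the nucleus. Its proteins are needed in nearly equal amounts, and their messages are among the most abundant and most evenly expressed in mammalian cells. Many of these messages begin with a C followed by a run of pyrimidines, the terminal oligopyrimidine (TOP) start, through which mTORC1 and the RNA-binding protein LARP1 set how much of each is translated. The mitochondrial ribosome translates the few messages of the mitochondrial genome, all for subunits of oxidative phosphorylation, and its own proteins are encoded in the nucleus, made in the cytosol and imported.

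The data were 12 single-colour Agilent arrays, 6 from pancreas tumor macrophages and 6 from normal pancreas macrophages. All mice were labelled female, C57/B6 and 4 to 5 months old. Their genotype is labelled as not provided; the series names wild-type, KPC and FLT3-CRE/LSL-YFP mice, and the labels do not say which of these gave a sample. KPC mice develop pancreatic tumors of their own, whereas the treatment protocol, given for both groups, speaks of implanted tumors. Cells were sorted straight into lysis buffer and the cDNA was amplified before labelling, which can shift the balance between messages. Tumor replicates 4 and 6 share a sample name, as do normal replicates 2 and 3, so each of these pairs entered as a single averaged sample and n was 5 in both groups. The labels do not tie the other samples to separate animals, and the spread behind every p-value may therefore be partly technical.

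Values are log2 signals relative to the array's own 75th percentile, so that 0 is the level below which 75% of probes lay. That percentile was 1091 to 1398 intensity units on the tumor arrays, against 398 to 1547 on the normal arrays, where replicates 2 and 3 were the dimmest and replicate 6 the brightest. Between 51.2% and 55.7% of probes were well above background on the tumor arrays, against 39.3% to 58.8% on the normal arrays. All 14 macrophage marker genes tested, among them Csf1r, Cd68 and C1qa, were well above background on all 12 arrays, and 0 of them passed the test between groups. Their differences, tumor minus normal, ran from -1.77 to 0.58 log2 units. At an unadjusted p under 0.05 in limma, 1 was higher and 2 were lower in tumor macrophages (21.4%, against 13.1% of all genes). Together they held 0.481% to 0.591% of the summed signal on tumor arrays and 0.470% to 0.654% on normal arrays. Markers of acinar cells, the enzyme-secreting cells of the pancreas, held 0.00899% to 0.198% on tumor arrays and 0.505% to 3.46% on normal arrays. Of the 25 acinar genes tested 21 were called, all lower in tumor macrophages. In bulk samples such as these, fewer cells of a type and less RNA per cell cannot be told apart.

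Parts of the promoters are shown first, since members of both ribosomes share features there. RefSeq promoter sequences (GRCm38.p6, 250 bases before to 50 after each gene's start) were matched by symbol for 128 of the 158 members, 60 cytosolic and 68 mitochondrial. A pyrimidine run that opens with C and continues for at least 4 more C or T, on the gene's strand and within 10 bases either side of the annotated start, was present in 51.7% of cytosolic members, 35.3% of mitochondrial members and 25.5% of all 27025 promoters. In the lines that follow, 15 bases before the start and 15 from it are given 5′ to 3′, with that run in capitals.
Rps6 (chr4:86857353-86857382, minus strand): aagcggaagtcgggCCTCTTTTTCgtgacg
Rps9 (chr7:3704026-3704055, plus strand): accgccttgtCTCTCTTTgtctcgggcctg
Rpl14 (chr9:120571502-120571531, plus strand): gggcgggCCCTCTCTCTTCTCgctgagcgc
Mrpl44 (chr1:79776003-79776032, plus strand): ccatgCTCCCTCTTCggtgtcctccagcgt
Mrpl45 (chr11:97315701-97315730, plus strand): gtgcccgcgcgCCCCTCCCCTggagagcgt

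Motifs upstream were looked for as exact letters on both strands over the same 300 bases. The ETS-type motif CCGGAAG, bound by GABP among others, was in 36.7% of cytosolic and 35.3% of mitochondrial members, against 9.12% of all promoters. The letters AAGATGGC, which YY1 can bind, were in 8.33% of cytosolic and 17.6% of mitochondrial members and in 2.88% of all promoters. The letters GCGCATGC, the core of the NRF1 motif, were in 3.33% of cytosolic and 11.8% of mitochondrial members and in 2.80% of all promoters. NRF1 and GABP are known as activators of nuclear genes for mitochondrial proteins. A match describes the letters and does not show binding, and the lines give 30 bases around 1 match each, in capitals.
Rps25, CCGGAAG (chr9:44407630-44407659, plus strand): cacccattgccCCGGAAGtactctctcgag
Mrpl18, CCGGAAG (chr17:12916312-12916341, minus strand): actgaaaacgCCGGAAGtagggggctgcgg
Mrps11, AAGATGGC on the other strand (chr7:78783013-78783042, plus strand): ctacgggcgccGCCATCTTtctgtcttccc
Mrpl9, GCGCATGC (chr3:94443297-94443326, plus strand): gaggcgcagctGCGCATGCgcggggtcctt

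Neither ribosome had a member that passed the test between tumor and normal macrophages. Of the 158 members, 153 passed the filter on dim probes and were tested, 78 cytosolic and 75 mitochondrial; the other members, Rpl3l, Rpl10l, Rpl39l, Mrpl19 and Mrpl35, were well above background on at most 2 of 6 arrays of a group. Rpl3l and Rpl10l, known from muscle and testis, were above background on 0 of the 12 arrays. Called means a Benjamini-Hochberg adjusted p under 0.05 in limma's moderated test over all 14761 genes, and 128 of those genes (0.867%) were called. Among the members 0 of 153 were called, and the smallest adjusted p was 0.118. An unadjusted p under 0.05 was reached by 0 of 78 cytosolic and 7 of 75 mitochondrial members (9.33%), against 1934 of all genes (13.1%). A p that misses the threshold does not show that the groups did not differ. On simulated data of this size, over 14761 genes, the test called 8 of 66 genes changed by 1 log2 unit, 36 of 67 changed by 2 and 57 of 67 changed by 3. The changed genes were drawn from all genes, so these rates are not those of the members. The median SE was 0.36 over all genes, 0.24 for cytosolic and 0.27 for mitochondrial members.

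With each array scaled on its 75th percentile, the members of the 2 ribosomes lay mostly on opposite sides of 0. The cytosolic members had a median difference, tumor minus normal, of -0.16 log2 units (a fold of 0.895), with 68 of 78 negative. The mitochondrial members had a median of 0.27 (a fold of 1.20), with 59 of 75 positive. Mrpl9, Mrpl46 and Mrps9, all positive, passed the filter on dim probes only through the tumor arrays. With only probes above background on all 12 arrays the mitochondrial median was 0.19, with 47 of 61 positive. The median over all genes tested was -0.0018, with 7364 of 14761 positive. These medians are descriptions, and no list was tested as such. The side of the cytosolic median depended on the processing. It was 0.02 with quantile scaling and in the authors' log2 table, whose values matched quantile-normalized signals, and 0.01 with normexp background correction. On slide 3 alone it was 0.07, and with the mean of the acinar markers as a covariate it was 0.32. It stayed negative with cyclic loess scaling (-0.10) and with median scaling on probes above background (-0.17). The mitochondrial median was positive under every setting tried, from 0.06 to 0.42. The highest came from scaling on the cytosolic members, which moved the median of all genes to 0.15 and left the mitochondrial members 0.27 above it. The lowest came with the acinar covariate, where 39 mitochondrial members were positive and 36 negative. In that fit the median of all genes was 0.03 and the median SE of the mitochondrial members was 0.63. On slide 2 alone, and likewise on slide 3 alone, the mitochondrial median lay 0.09 above that of all genes.

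**Figure D1:**
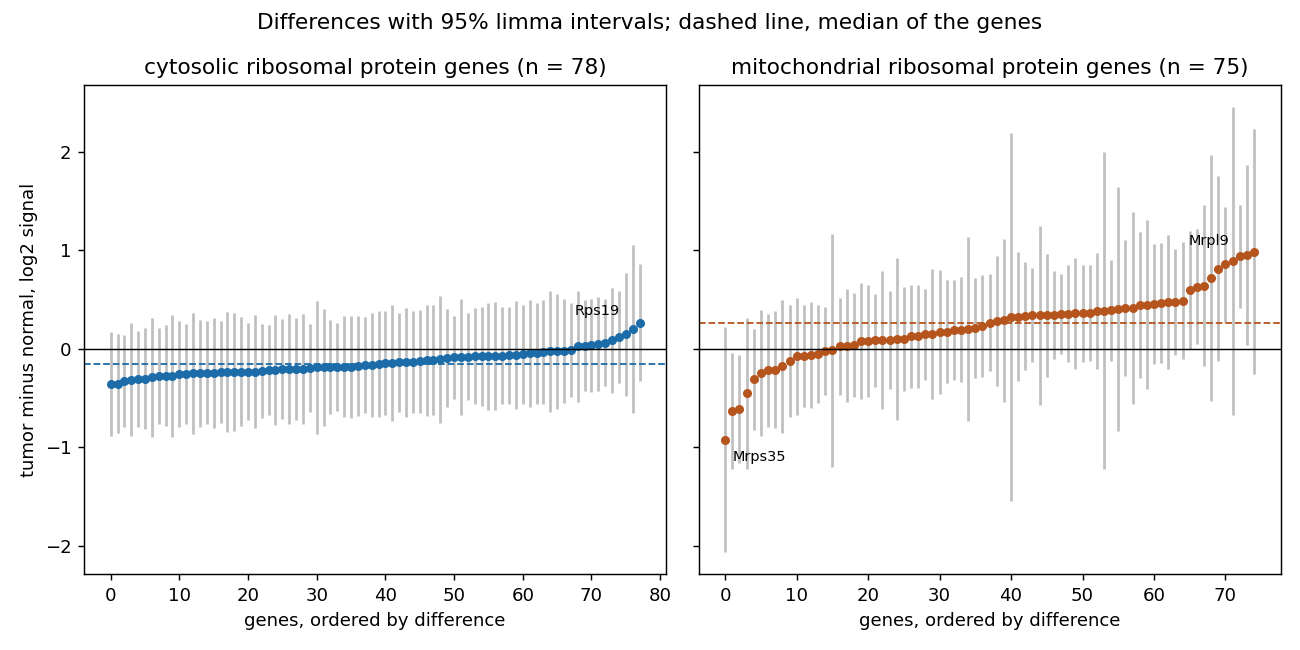
Difference between tumor and normal macrophages (log2 units, vertical axis) for each member tested, ordered along the horizontal axis, with its 95% limma interval (grey bar) and the median of the genes (dashed line). The cytosolic differences have quartiles of -0.23 and -0.07 and the mitochondrial ones of 0.06 and 0.41.

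The cytosolic differences were narrow. The highest was 0.27, for Rps19, and the quartiles were -0.23 and -0.07. Their SD across genes was 0.13, against 0.79 for all genes. For 77 of 78 members the 95% interval, before any correction for the number of genes, lay within 1 log2 unit of 0, that is within a fold of 2 either way. The exception was Rps4l, whose interval reached 1.05. The large subunit (45 tested) had a median of -0.14 and the small subunit (33 tested) one of -0.18, with 39 and 29 members negative. All but 1 cytosolic member, Rpl7l1, were well above background on all 12 arrays.

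Rps4x, the X-linked copy of a small-subunit protein, had 5.37, 5.33, 4.96 and 5.28 in tumor replicates 1, 2, 3 and 5 and 4.98 in the averaged 4 and 6, against 5.54, 5.52, 5.54 and 5.05 in normal replicates 1, 4, 5 and 6 and 6.04 in the averaged 2 and 3. The averaged normal pair stood highest and replicate 6 lowest of the normal samples, the groups overlapped, and the difference was -0.35 ± 0.23 (SE, n = 5 samples a group; limma adjusted p = 0.544). Rpl12, a protein at the base of the ribosomal stalk, had 5.16 to 5.70 in tumor samples and 5.43 to 6.06 in normal samples, a difference of -0.33 ± 0.21 (SE; limma adjusted p = 0.545). Rps29 followed at -0.31, Rpl5 at -0.31 and Rpl7 at -0.30, and both groups overlapped for each.

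On the positive side stood Rps19, the gene most often mutated in Diamond-Blackfan anaemia. It had 4.11, 3.87, 3.20 and 4.19 in tumor replicates 1, 2, 3 and 5 and 4.12 in the averaged 4 and 6, against 3.56, 3.22, 3.77 and 3.45 in normal replicates 1, 4, 5 and 6 and 4.16 in the averaged 2 and 3. Tumor replicate 3 lay below all 5 normal samples and the other tumor samples lay among or above them, and the difference was 0.27 ± 0.27 (SE; limma adjusted p = 0.706). Rps4l, an autosomal copy of Rps4x, differed by 0.20 ± 0.39, Rpl7l1 by 0.15 ± 0.29 and Rps9, a small-subunit protein, by 0.12 ± 0.21. Rpl36a at 0.08 and Rpl14 at 0.06 completed the 6 most positive. Each of these differences was no larger than its SE, and the adjusted p-values in limma ran from 0.706 to 0.921.

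Some members are known for roles outside the ribosome. Rpl5 and Rpl11, which bind and inhibit Mdm2 when ribosome assembly is disturbed, differed by -0.31 ± 0.22 and -0.21 ± 0.23 (SE). Rpl13a, part of the GAIT complex that silences inflammatory messages in human macrophages, differed by -0.19 ± 0.31. Rps3, which also binds NF-kappaB, differed by -0.18 ± 0.24, and Rps6, the substrate of the S6 kinases, by 0.02 ± 0.25. Rps14 differed by -0.25 ± 0.24 and Rps25, needed for initiation at some viral and cellular internal entry sites, by -0.07 ± 0.22. The smallest limma adjusted p among these 7 was 0.589.

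Several cytosolic proteins have a duplicated copy, and the copies were read by probes of 60 bases that share at most 7 bases in a row with the partner's probe. That comparison is between probes only. Whether a probe also reads the partner's transcript was not tested. Rpl22, whose loss in mice impairs T cell development, differed by -0.06 ± 0.23, and its copy Rpl22l1 by -0.19 ± 0.27. Rpl7 differed by -0.30 ± 0.23 and Rpl7l1 by 0.15 ± 0.29. Rpl36a differed by 0.08 ± 0.24 and Rpl36al by 0.03 ± 0.21, and Rps27 by -0.08 ± 0.23 and Rps27l, a p53 target, by -0.01 ± 0.22. Rpl3, Rpl10 and Rpl39, whose copies were too dim to test, differed by -0.16, -0.29 and -0.16. Rps12 and Rps12l2, named after their values were seen, differed by -0.28 ± 0.28 and -0.23 ± 0.22. No RefSeq gene was matched to the name Rps12l2 or to its probe. None of these genes was called. The differences between partners were not tested. For Rps4x and Rps4l the first 30 bases of each probe are given (5′ to 3′, mm9 positions of the whole probe).
Rps4x (chrX:99380274-99380333, minus strand): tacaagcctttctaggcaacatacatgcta
Rps4l (chr6:148304043-148304102, plus strand): ggggaaggggcgtttacgtttgtttatact

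The cytosolic members moved together from sample to sample, and more between samples of a group than between groups. Their median level was 5.43, 5.40, 5.12 and 5.62 in tumor replicates 1, 2, 3 and 5 and 5.11 in the averaged 4 and 6, against 5.50, 5.48, 5.55 and 5.05 in normal replicates 1, 4, 5 and 6 and 5.93 in the averaged 2 and 3. The group means were 5.34 ± 0.22 for tumor and 5.50 ± 0.32 for normal (SD, n = 5 each). The averaged normal pair was the highest of the 10 samples for 63 of 78 members and normal replicate 6 the lowest for 45. Over the 10 samples a member's level correlated with the median of the other members at a median Pearson r of 0.873, while for mitochondrial members the same value was 0.382; the points share arrays and their scaling. The pair that stood highest was the dimmest, and the sample that stood lowest was the brightest array, and the acinar markers held 3.46% and 3.17% of the signal on the 2 arrays of that pair and 0.505% on normal replicate 6. The part of brightness and of acinar RNA in this order was not tested. Without the averaged pair the median cytosolic difference was -0.04, without normal replicate 6 it was -0.27, and without both it was -0.16. Within slides it was -0.30 on slide 1, -0.55 on slide 2 and 0.07 on slide 3. Normal replicates 2, 3 and 6 lie on slides 1, 2 and 3, in that order. Tumor replicates 4 and 6 lie on slides 2 and 3, so the slides share samples.

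**Figure D2:**
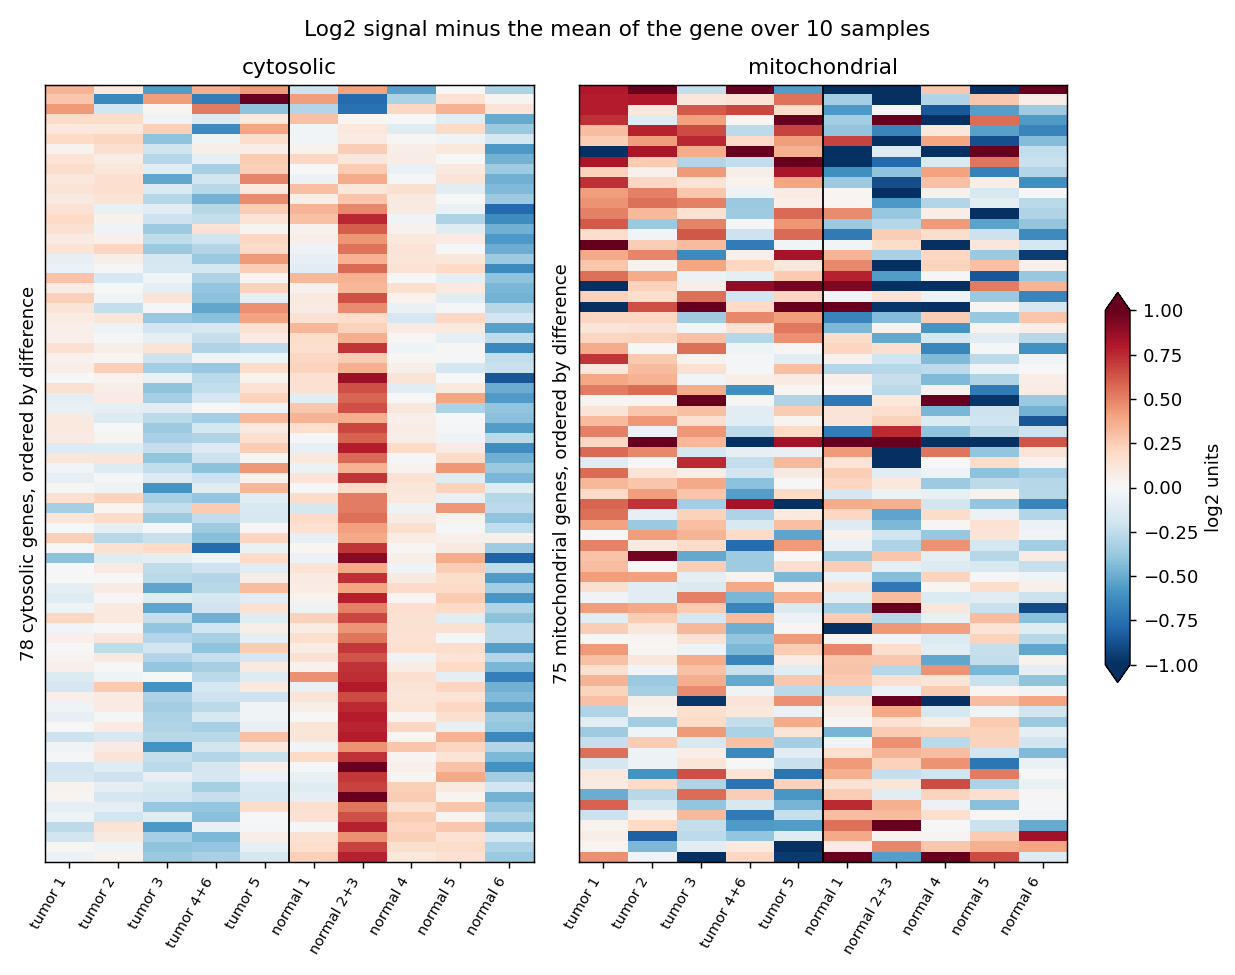
Log2 signal of each member minus its mean over the 10 samples (colour, in log2 units, with values past 1 shown at the end colour), with genes down the page in order of their difference and tumor samples left of normal samples. The cytosolic panel shows columns that are mostly of one colour, red for the averaged normal replicates 2 and 3 and blue for normal replicate 6, whereas the mitochondrial panel shows a mixed pattern.

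Most cytosolic members belong to the brightest probes, and bright genes as a whole leaned the same way. The brightest 10% of genes by mean level held 75 of the 78 cytosolic and 6 of the 75 mitochondrial members. The other 1396 genes of that 10% had a median difference of -0.07, with 831 negative. As a share of each array's summed signal, the cytosolic members held 2.31% to 2.88% on tumor arrays, against 2.40% to 2.69% on normal arrays, and the group ranges overlapped. The means were 2.60% on tumor and 2.58% on normal arrays, so this measure did not show the negative lean. When arrays were scaled on the cytosolic members' own median, an alternative added after the data were seen, none of them was called either. Rps19 then differed from its fellows by 0.42 ± 0.25 (SE; limma adjusted p = 0.546), the smallest unadjusted p of the 78, at 0.119.

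The mitochondrial members spread more widely, from -0.92 for Mrps35 to 0.99 for Mrpl9, with quartiles of 0.06 and 0.41 and an SD across genes of 0.36. The large subunit (46 tested) had a median of 0.32 with 38 positive, and the small subunit (29 tested) one of 0.17 with 21 positive. For 45 of the 75 members the 95% interval lay within 1 log2 unit of 0. Their shares of the summed signal were 0.162% to 0.224% on tumor arrays and 0.108% to 0.189% on normal arrays. The sample medians were 1.16, 0.85, 0.82 and 0.85 in tumor replicates 1, 2, 3 and 5 and 0.66 in the averaged 4 and 6, against 0.70, 0.89, 0.62 and 0.47 in normal replicates 1, 4, 5 and 6 and 0.72 in the averaged 2 and 3. The group means were 0.87 ± 0.18 for tumor and 0.68 ± 0.16 for normal (SD, n = 5 each), and the groups overlapped.

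Mrps6, a small-subunit protein, was the member with the smallest p. It had 0.54, -0.14, 0.37 and -0.07 in tumor replicates 1, 2, 3 and 5 and 0.42 in the averaged 4 and 6, against -0.82, -1.10, -0.79 and -0.60 in normal replicates 1, 4, 5 and 6 and -0.27 in the averaged 2 and 3. Every tumor sample lay above every normal sample. It was the only one of 153 members for which the groups did not overlap, while 269 of all 14761 genes (1.82%) lay wholly above and 256 (1.73%) wholly below. The difference was 0.94 ± 0.24 (SE; limma adjusted p = 0.118), with a 95% interval of 0.41 to 1.46, and it was not called. It was 0.80 on slide 1, 1.05 on slide 2 and 0.84 on slide 3, and these slides share samples. With the 12 arrays taken as separate samples the adjusted p in limma was 0.0416, and over all alternatives it ran from that value to 0.9998.

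Mrpl18, a large-subunit protein tied to 5S RNA import in human cells, had -1.03, -0.57, -0.69 and -0.66 in tumor replicates 1, 2, 3 and 5 and -1.60 in the averaged 4 and 6, against -1.74, -1.24, -1.88 and -1.997 in normal replicates 1, 4, 5 and 6 and -1.997 in the averaged 2 and 3. The averaged tumor pair fell among the normal samples and the other tumor samples lay above all of them. The difference was 0.86 ± 0.26 (SE; limma adjusted p = 0.194), and its probe was well above background on 6 of 6 tumor and 4 of 6 normal arrays. Mrpl45, the large-subunit protein that anchors the ribosome to the inner membrane, had -0.66, -0.65, -1.33 and -0.90 in tumor replicates 1, 2, 3 and 5 and -1.30 in the averaged 4 and 6, against -1.78, -1.75, -1.17 and -1.38 in normal replicates 1, 4, 5 and 6 and -3.52 in the averaged 2 and 3. That averaged normal pair lay far below the rest, and the difference of 0.95 ± 0.42 (SE; limma adjusted p = 0.359) was 0.55 without it. Mrps15 at 0.63 ± 0.27 and Mrps16 at 0.60 ± 0.27, named here after their values were seen, were the other positive members with an unadjusted p under 0.05.

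Members with the largest positive differences were often dim. Mrpl9 at 0.99 ± 0.56 was well above background on 5 of 6 tumor and 2 of 6 normal arrays, and its other probe gave -0.17. Mrpl44 at 0.81 ± 0.43 was above background on 6 tumor and 3 normal arrays and was 0.47 without the averaged normal replicates 2 and 3. Mrps31 at 0.89 ± 0.71 was above background on 6 and 5 arrays. Its normal replicate 4 stood at -4.80, the other normal samples at -0.29 to -2.18, and without that replicate the difference was 0.20, while on slide 1 alone it was -0.24. In the whole list, 61 of 75 members were well above background on all 12 arrays.

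In the other direction, Mrps11, a protein of the small subunit's platform, had 3.46, 2.57, 3.13 and 3.27 in tumor replicates 1, 2, 3 and 5 and 2.99 in the averaged 4 and 6, against 3.77, 3.42, 3.65 and 4.24 in normal replicates 1, 4, 5 and 6 and 3.42 in the averaged 2 and 3. A single tumor sample, replicate 1, reached into the normal range, and the difference was -0.61 ± 0.25 (SE; limma adjusted p = 0.326). Mrpl49, a large-subunit protein, had 1.95, 1.47, 1.81 and 0.76 in tumor replicates 1, 2, 3 and 5 and 2.01 in the averaged 4 and 6, against 1.999, 2.18, 2.27 and 2.31 in normal replicates 1, 4, 5 and 6 and 2.40 in the averaged 2 and 3. The averaged tumor pair lay just above normal replicate 1, the lowest normal sample, and the difference was -0.63 ± 0.27 (SE; limma adjusted p = 0.347), while a second probe of the gene gave 0.06. Mrps35 at -0.92 ± 0.52 was above background on 4 of 6 arrays of each group and was -0.54 without tumor replicate 3. Mrpl50 gave -0.45 with one probe, or -0.18 without the averaged normal replicates 2 and 3, and 0.98 with the other. Mrpl22 at -0.31 ± 0.23 and Mrpl28 at -0.25 ± 0.29 were the remaining members of the 6 most negative.

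Probes of some members described above are shown by their first 30 of 60 bases, 5′ to 3′, with the mm9 position of the whole probe as the array's files give it.
Mrps6 (chr16:92112223-92112282, plus strand): ctgctaggttgttgtctaggatactttagc
Mrpl18 (chr17:13104338-13104397, minus strand): gcttcagagcaataatgtgactgaaaactt
Mrps11 (chr7:85933622-85935544, plus strand, with an interval longer than the probe): gacgtcccaattgcacacattaaagcaacc
Rps19 (chr7:25670166-25670225, plus strand): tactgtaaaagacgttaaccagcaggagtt
The files place the probes of Rps27 and Rps29 on chromosomes 9 and 2, whereas RefSeq places those genes on chromosomes 3 and 12, and for the other 150 members with both positions the chromosomes matched.

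**Figure D3:**
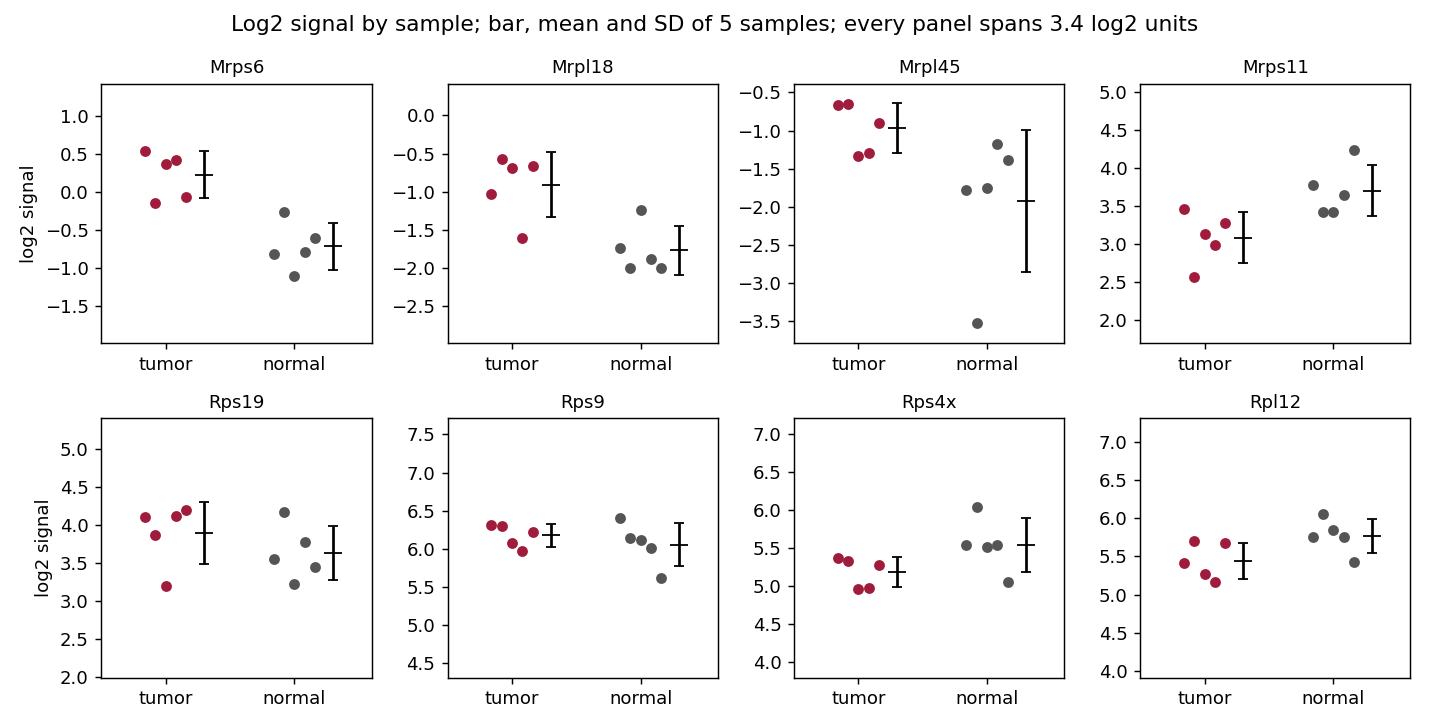
Log2 signal (vertical axis, 3.4 units in every panel) of 8 members in the 5 tumor samples (red, left) and the 5 normal samples (grey, right), with the mean and SD beside each group. Every tumor sample of Mrps6 lies above every normal sample, and the groups overlap in the other panels.

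Among mitochondrial members chosen by name for their roles, none was called. Mrpl12, which also binds the mitochondrial RNA polymerase, differed by 0.47 ± 0.31 (SE), with 0.17 to 1.097 in tumor and -0.52 to 1.01 in normal samples. Mrps12, the decoding-centre protein homologous to the bacterial streptomycin target, differed by -0.08 ± 0.27, and Mrpl36 by 0.19 ± 0.23. The 3 homologs of bacterial S18, which sit at different places on the mitochondrial ribosome, gave -0.13 ± 0.26 for Mrps18a, 0.03 ± 0.22 for Mrps18b and 0.15 ± 0.30 for Mrps18c. Mrps36, now known as a subunit of the 2-oxoglutarate dehydrogenase complex, differed by 0.28 ± 0.30. The 3 probes of Mrps18b ran from -0.31 to 1.16.

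More than 1 probe passed the filter for 80 members. The probes disagreed in sign for 19 of 56 such cytosolic and 11 of 24 such mitochondrial members. They spanned over 0.5 log2 units for 5 and 10 members of the same lists, among them Rpl14 (0.05 to 1.02), Rps24 (-0.72 to -0.05), Mrpl50, Mrpl9 and Mrps25 (0.23 to 1.14). For Mrpl9 and Mrpl50 the other probe gave the opposite sign.

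The differences were also set beside the promoter letters. Cytosolic members with the pyrimidine start (29 tested) had a median difference of -0.11 and those without it (28) one of -0.15. Mitochondrial members with it (24) had a median of 0.34 and those without it (43) one of 0.15. With CCGGAAG the medians were -0.09 for 21 cytosolic and 0.17 for 24 mitochondrial members, and without it -0.16 for 36 and 0.32 for 43. With AAGATGGC the median of 11 mitochondrial members was -0.05, and without it that of 56 was 0.27. These are descriptions of small groups, with no test.

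Genes around the ribosome were described from lists with no call in any of them. Ribosomal proteins under other names (the P stalk, Fau, the laminin receptor and Gnb2l1) had a median of -0.14, with 0 of 7 positive and 0 called. Gnb2l1, the scaffold also called Rack1, differed by -0.28 ± 0.24 the stalk protein Rplp1 by -0.28 ± 0.25 and Fau, which encodes a small-subunit protein, by -0.20 ± 0.24 (SE). Mitochondrial ribosome proteins under other names had a median of 0.16, with 5 of 6 positive and 0 called, of which Ptcd3 at 0.46 ± 0.24, Aurkaip1 at 0.21 ± 0.19 and Dap3 at 0.18 ± 0.24 had the smallest p-values. Genes of mitochondrial translation and ribosome assembly had a median of 0.08 with 24 of 35 positive, ribosome biogenesis factors one of 0.18 with 32 of 45 positive, and RNA polymerase I genes one of -0.07 with 5 of 13 positive. In each of these lists 0 genes were called. Well above background on all 12 arrays were 21 of 35, 36 of 45 and 9 of 13 of their genes, in that order. Wars2, Nsun4 and Wdr43, all positive, passed the filter on dim probes only through the tumor arrays, as did Nop58, which was negative. Polr1e and Polr1c, each negative, passed only through the normal arrays. The positive and negative counts include these genes. Among the genes of mitochondrial translation, the smallest p-values belonged to the tryptophanyl-tRNA synthetase gene Wars2 at 1.62 ± 0.61, which was above background on 6 tumor and 2 normal arrays and gave -0.20 on slide 3 alone, to the RNA methyltransferase gene Nsun4 at 0.83 ± 0.37, above background on 6 and 1, and to the phenylalanyl-tRNA synthetase gene Fars2 at 0.50 ± 0.24, above background on all.

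Translation factors had a median of 0.01, with 18 of 34 positive and 0 called. Eif4g2, an initiation factor that works without cap-binding eIF4E, came nearest to a call. It had -1.22, -0.84, -0.39 and -0.58 in tumor replicates 1, 2, 3 and 5 and -1.33 in the averaged 4 and 6, against -2.87, -3.05, -2.24 and -1.90 in normal replicates 1, 4, 5 and 6 and -4.15 in the averaged 2 and 3. Every tumor sample lay above every normal sample, and the difference was 1.97 ± 0.40 (SE; limma adjusted p = 0.0536); its probe was above background on 6 tumor and 3 normal arrays. It was called under 6 of the alternatives and was 0.70 with normexp. Eif5a, which carries hypusine and helps ribosomes past proline runs, had 4.26 to 4.45 in tumor samples and 3.21 to 4.25 in normal samples, a difference of 0.51 ± 0.23 (SE; limma adjusted p = 0.373). Eif3a differed by 0.87 ± 0.37, with its probe above background on 2 of 6 normal arrays.

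Among controls of ribosomal protein synthesis, 10 of 16 were positive with a median of 0.17, and 0 were called. Myc, which drives ribosome production, had 0.86, 0.69, 1.36 and 1.32 in tumor replicates 1, 2, 3 and 5 and 0.19 in the averaged 4 and 6, against 0.05, 0.23, -1.03 and 0.47 in normal replicates 1, 4, 5 and 6 and 0.86 in the averaged 2 and 3. The groups overlapped through the averaged pairs, and the difference was 0.77 ± 0.37 (SE; limma adjusted p = 0.414). The translational repressor gene Eif4ebp2 differed by 0.40 ± 0.19 and the S6 kinase gene Rps6kb2 by 0.71 ± 0.37. Of the biogenesis factors, Rrp12 differed by 1.15 ± 0.46, Rrp1b by 1.14 ± 0.45 and Wdr43 by 1.14 ± 0.53. Their probes were above background on 5, 6 and 6 tumor arrays and on 3, 4 and 2 normal arrays, in that order. On slide 3 alone Wdr43 was at -0.10. Of the RNA polymerase I genes, Polr1b, the second largest subunit, differed by -0.98 ± 0.35 (SE; limma adjusted p = 0.269) and the transcription factor gene Taf1b by 0.50 ± 0.27. The probe of Polr1b was above background on only 3 tumor and 3 normal arrays. The subunit gene Polr1e differed by -1.88 ± 0.82 and was above background on 2 tumor and 6 normal arrays. Proliferation genes had a median of 0.36 with 14 of 16 positive and 0 called, and 10 of the 16 were well above background on all 12 arrays. By p the first were the mitotic kinase gene Aurka at 1.53 ± 0.53, the DNA replication helicase gene Mcm2 at 0.85 ± 0.35, and the topoisomerase gene Top2a, whose probe passed background on 4 tumor arrays and on 0 of the 6 normal arrays.

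Acinar transcripts differed most between the groups, so the members were also fitted with the mean of the acinar list as a covariate, an alternative added after the data were seen. The median difference was then 0.32 for cytosolic and 0.06 for mitochondrial members, with 0 members and 0 of all genes called. The acinar shares of the groups do not overlap, and the median SE of the cytosolic members was 0.55 in this fit, against 0.24 without the covariate. The neutrophil list held 0.0186% to 0.0264% of the signal on tumor arrays and 0.0125% to 0.0187% on normal arrays. Without the covariate, 1 of its 12 genes tested was called (Retnlg, higher in tumor macrophages). Of the 12 differences, 9 were positive and 3 negative, from -2.37 to 4.34, and 2 of the genes were well above background on all 12 arrays. The part of this list in the members' values was not tested.

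**Figure D4:**
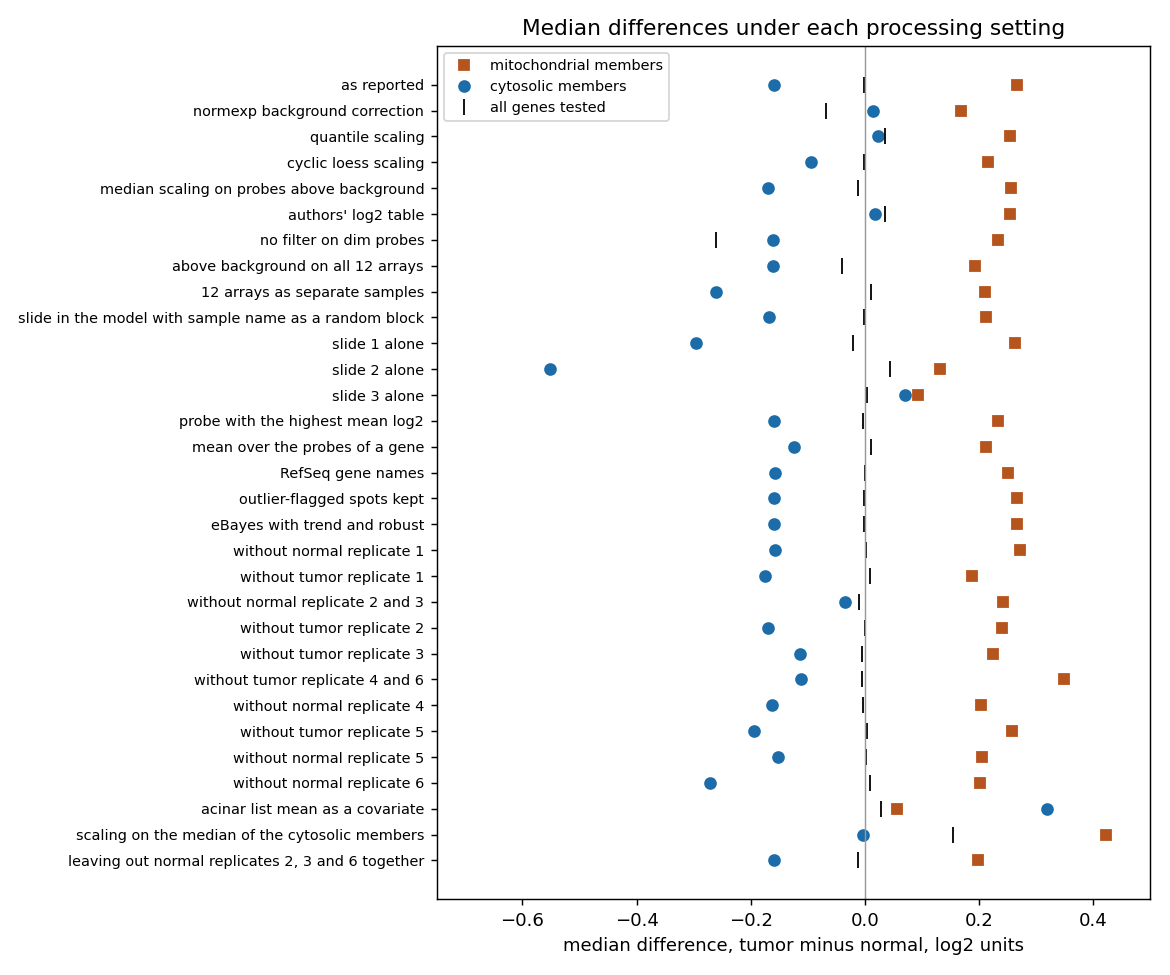
Median difference between tumor and normal macrophages (log2 units, horizontal axis) of the mitochondrial members (squares), the cytosolic members (circles) and all genes tested (ticks) under each processing setting (rows). The squares stay right of 0 from 0.06 to 0.42, while the circles run from -0.55 on slide 2 to 0.32 with the acinar covariate.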

How the data were processed

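Messenger RNA was measured on 12 arrays. Per the file headers, the authors scanned each array in the red channel with Agilent Feature Extraction, for which the submitters' processing notes give version 11.5.1.1, and deposited a background-subtracted processed intensity per spot. The deposited value table holds log2 values that matched quantile-normalized processed signals and was used as an alternative. Control spots and flagged spots (0.401%) were left out, spots of a probe were averaged, and log2 values were set relative to the array's 75th percentile. Of 39429 probes, 22448 were well above background on at least 3 of 6 arrays of either group, and the brightest by mean signal stood for each of 14761 genes. Groups came from the source name, and limma 3.58.1 (lmFit, eBayes) compared tumor with normal samples, 5 a group, with Benjamini-Hochberg adjustment over all genes. The test was also run on simulated data with the means and spreads of these genes. Other scalings, filters, probe rules, slides and sample sets were tried as alternatives. The number of arrays limits the precision. The members, gene lists and tests were chosen with earlier results of these data known. Named were the 6 largest differences each way in both lists, paralogs and members chosen for their roles, and the 3 smallest p-values of each of 8 pathway lists. One member that this rule names is not reported here.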

Additional observations from a re-analysis of the deposited data

Results flagged for a closer look

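Among 94 groups of 5 samples looked at (45 named members and both list medians, in each group), 6 held a sample whose gap to its nearest neighbour exceeded Dixon's critical share of the range (0.71 for 5 samples), where chance gives about 1 in 20. In tumor macrophages, replicate 1 stood above the others for Mrpl28 (1.90, the others at most 1.15) and Rpl10 (5.25, the others at most 5.06). The averaged tumor replicates 4 and 6 stood below the others for Rpl22l1 (2.91, the others at least 3.62) and Rpl36a (2.79, the others at least 3.52). In normal macrophages, the averaged replicates 2 and 3, the dimmest arrays, stood below the others for Mrpl45 (-3.52, the others at least -1.78) and Mrps36 (-1.42, the others at least -0.39). The causes were not tested.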

How the results depend on the processing

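No paired analysis was possible because the replicate numbers follow only the order of the samples and the labels pair no tumor sample with a normal one. In 30 alternative fits the count of cytosolic members called remained 0, as it did at an adjusted p under 0.1, and the count of mitochondrial members called was 0 except for 1 (Mrps6) with 12 arrays as separate samples. Genes called over all genes, 128 as reported, were 430 in that setting, 215 with normexp, 229 with eBayes trend and robust, 254 at an adjusted p under 0.1, and 0 within slides 1, 2 and 3 and with the acinar covariate. Leaving out 1 sample at a time gave 54 (without normal replicate 5) to 194 (without normal replicate 6), with 69 without tumor replicate 2, 73 without tumor replicate 1 and 77 without normal replicate 1. The median cytosolic difference moved beyond the spread of the samples on slide 2 (-0.55) and with the acinar covariate (0.32); without 1 sample it ran from -0.27 to -0.04. The mitochondrial median moved to 0.0936 on slide 3 and 0.0565 with the acinar covariate, and without 1 sample ran from 0.19 to 0.35. Without the filter on dim probes the median of all genes shifted to -0.26 and that of the cytosolic members was -0.16. Of 45 named members, 13 kept their sign under every fit, among them Mrps6, Mrpl18, Mrps11, Mrpl49, Rps4x and Rpl12. Of the members tested, 77 of 78 cytosolic and 61 of 75 mitochondrial ones were well above background on all 12 arrays. The cause of the shifts was not tested.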
